A study of Mus musculus with 24 samples.

Results

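Kidneys of RC/- mice from both edited Pkd1 lines were compared, 5 RC/- D53 libraries against 5 RC/- D18 libraries. These are 10 of the 24 libraries in the series and were chosen by their genotype labels alone. Each library held the RNA of the whole kidney of 1 C57BL/6 mouse (C57BL/6 J in the study's methods) killed at 18 days of age. In all 10 mice one Pkd1 allele was RC, a missense change that leaves less mature polycystin-1, and the other was inactivated. The RC allele had lost its binding motif for the microRNA miR-17 in every one of them. The study reports that losing this motif almost fully relieved the cystic disease of RC/- mice at this age. The inactivation was made by Ksp-Cre, a recombinase expressed in kidney tubule cells, so other cells of the kidney kept that second allele. The D18 mice came from founder 3 and the D53 mice from founder 2. Each line therefore goes back to 1 edited animal, and the edit cannot be told apart from anything else that the founders passed on. The study reports unequal disease between these founders without the edit. Most unedited RC/- offspring of founder 2 died early, while all those of founder 3 lived through a longer follow-up. What the numbers in the names D18 and D53 stand for is not stated in the sources used here, but they are not ages. Reference values came from 5 unedited RC/- mice (cystic) and from 3 mice each of RC/+, RC/+ D18 and RC/+ D53. The RC/+ groups have an intact second allele, carry no Cre and are labelled control. The founder of the unedited RC/- and RC/+ mice is not given in the sources used here. Xist and Ddx3y counts gave 3 female and 2 male libraries in each of the RC/- D18 and RC/- D53 groups.

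Polycystin-1 is a large membrane protein of the kidney tubule, and tubules that have too little of it dilate into cysts. MicroRNAs of the miR-17 family pair through their seed with a motif in the 3′ UTR of Pkd1 and lower its output. As cysts grow, the epithelium that lines them gains keratins and injury markers, macrophages and fibroblasts gather around it, and the proximal tubule loses its transport and metabolic program.

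The motif that both lines lack is shown here because it is the edit itself. The first line is the mature miR-17-5p sequence from RefSeq (GRCm38.p6, chr14:115043684-115043706, plus strand), with the seed, bases 2 to 8, in capitals. The second is the unedited Pkd1 sequence around the motif (GRCm38, chr17:24595714-24595741, plus strand), with the letters that pair with the seed in capitals.
miR-17-5p: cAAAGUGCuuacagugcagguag
Pkd1 site: tccacatatggggcttctGCACTTTaaa
The match covers chr17:24595732-24595738 in exon 46 of 46, starts at base 193 of the 969-base 3′ UTR, and was the only match to this seed in that UTR.

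Depth was 20.9 to 30.8 M counts in the 10 libraries and 20.4 to 30.8 M in all 24. Kidney markers were present in all of them, with proximal tubule transcripts (20 genes) summing to 18638 to 30282 CPM (read counts scaled to the library's total) in the 10 libraries. Some libraries stood apart. All RC/- D53 libraries, and replicates 20 to 22 of RC/- D18, held skeletal muscle transcripts that summed to 302 to 384 CPM over 25 genes, against 85.6 and 96.3 CPM in RC/- D18 replicates 18 and 19 and 73.5 to 103 CPM in the other 14 libraries. RC/- D18 replicate 22 had the lowest sum of cell cycle genes of the 24 libraries (243 CPM over 20 genes) and the highest sum of adipose genes (5288 CPM over 11 genes). RC/- D53 replicate 24 had an MHC class II sum of 548 CPM against 158 to 171 CPM in the rest of its group. Albumin stood at 88.3 CPM in RC/- D53 replicate 25 and at 1.17 to 20.6 CPM in the other 9 of these 10 libraries. Among the reference libraries, unedited RC/- replicate 16 held 2116 CPM of adrenal transcripts over 11 genes, where no other library passed 15.3 CPM.

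The first question was which genes the 5 RC/- D53 kidneys expressed at another level than the 5 RC/- D18 kidneys. A total of 60 genes of 22570 tested (0.266%) differed with an adjusted p below 0.05 (limma-trend, Benjamini-Hochberg adjustment over all genes tested, as for every adjusted p below unless another tool is named). Of these, 55 (0.244% of the genes tested) were higher in RC/- D53 and 5 (0.0222%) were lower. The higher genes included the calcium channel Trpv6, the calcium-binding protein S100a14, the keratins Krt8 and Krt18 and the sodium channel subunit Scnn1g. The lower genes included the zinc exporter Slc30a1 and the metal-binding metallothionein Mt1. Log2 fold changes of the 55 ran from 0.29 to 2.11 with a median of 0.63, and 10 of the 55 and 3 of the 5 reached 1 in size. The median over all genes tested was 0.03. Without adjustment, 2993 genes (13.3%) had a p below 0.05, of which 2130 (9.44%) were higher and 863 (3.82%) lower.

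The libraries of one group did not overlap those of the other in 52 of the 55 higher genes and in all 5 lower genes, where 1.94% and 0.798% of all genes tested were separated in those directions. The number of calls depended on single libraries. It fell to 39 without RC/- D18 replicate 19, to 23 without RC/- D18 replicate 22, to 19 without RC/- D53 replicate 25 and to 36 without RC/- D53 replicate 27, and was 43 to 59 without any one of the other 6. DESeq2 called 204 genes higher and 72 lower, and limma on these 10 libraries alone called 50 higher and 12 lower. All 60 genes kept their direction in the 9 other settings tried and without each of the 10 libraries, and 18 kept an adjusted p below 0.05 in all of these (Cyp4x1 in all but a filter of 1 CPM, which removes it): Cyp4f39, Cyp4x1, S100a14, Trpv6, Dcdc2a, Mcoln3, Adh1, Neurl1a, Spock2, Krt18, Krt8, Degs2, Scnn1g, Tpm1, Lpcat4 and Scd2 (higher), and Gm28438 and Slc30a1 (lower).

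With the RC/- D18 group limited to replicates 20 to 22, which carry muscle transcripts as all RC/- D53 libraries do, 69 genes (0.306%) differed, 62 higher (0.275%) and 7 lower (0.031%). The contrasted groups share 8 libraries, and both fits also hold the same libraries of the other groups, which help to set the spread. A set of 37 genes was called both ways, which is 61.7% of the 60 and 53.6% of the 69, and all 60 had the same sign. Of the 55 higher genes, 34 were called again, and of the 5 lower genes 3 were (Slc30a1, Vwa8 and Gm28438). This 3-library group leaned on replicate 22, without which 0 genes passed (limma, 1823 at an unadjusted p below 0.05), and on RC/- D53 replicates 25 and 27, without which 6 and 9 passed. Without RC/- D18 replicate 20 the number was 753.

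The called genes are described here by what their proteins do, an order made after their values were seen and not tested for enrichment. Trpv6, S100a14, Mcoln3, Scnn1g, Mal2 and Slc38a4 act in transport across membranes, in calcium binding or in membrane traffic. Trpv6, the apical calcium channel of absorbing epithelia (chr6:41620624-41636405), was at 6.70, 6.56, 4.94, 7.45 and 5.97 CPM in RC/- D18 replicates 18 to 22, and at 14.2, 16.3, 14.9, 11.4 and 13.1 CPM in RC/- D53 replicates 23 to 27. The lowest RC/- D53 library lay above the highest RC/- D18 library. This was a 2.20-fold difference (1.14 on the log2 scale, SE 0.162, adjusted p = 0.00329), and on that scale it was 1.19 (adjusted p = 0.0182) against replicates 20 to 22. S100a14, a calcium-binding protein of epithelial cells (chr3:90526856-90528837), stood at 10.8, 10.2, 8.95, 17.1 and 8.60 CPM in D18 and 24.9, 27.7, 29.5, 23.2 and 38.7 CPM in D53, in the same order of replicates, which is used from here on. RC/- D18 replicate 21 was high for its group and still below every D53 library. The difference was 2.62-fold (log2 fold change 1.39, SE 0.217, adjusted p = 0.00473).

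Mcoln3, a cation channel of endosomes and lysosomes, read 66.8, 65.1, 68.6, 89.7 and 66.2 CPM in D18 against 128, 162, 139.9, 123 and 107 CPM in D53 (log2 fold change 0.88, SE 0.130, adjusted p = 0.00372). Again replicate 21 was the highest of the D18 kidneys. Scnn1g, the gamma subunit of the epithelial sodium channel of the collecting duct, was at 96.3, 99.8, 93.9, 106 and 88.5 CPM in D18 and at 134, 174, 148, 143 and 138 CPM in D53 (log2 fold change 0.60, SE 0.102, adjusted p = 0.00913). No library crossed between the lines. Mal2, a protein of apical membrane traffic, was 135 ± 16.05 CPM in D18 and 198 ± 18.2 CPM in D53 (SD, n = 5 each, adjusted p = 0.00994). The amino acid transporter Slc38a4 was called with overlapping libraries (6.18 to 13.1 CPM in D18 and 12.1 to 23.4 CPM in D53, adjusted p = 0.0293).

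**Figure D1:**
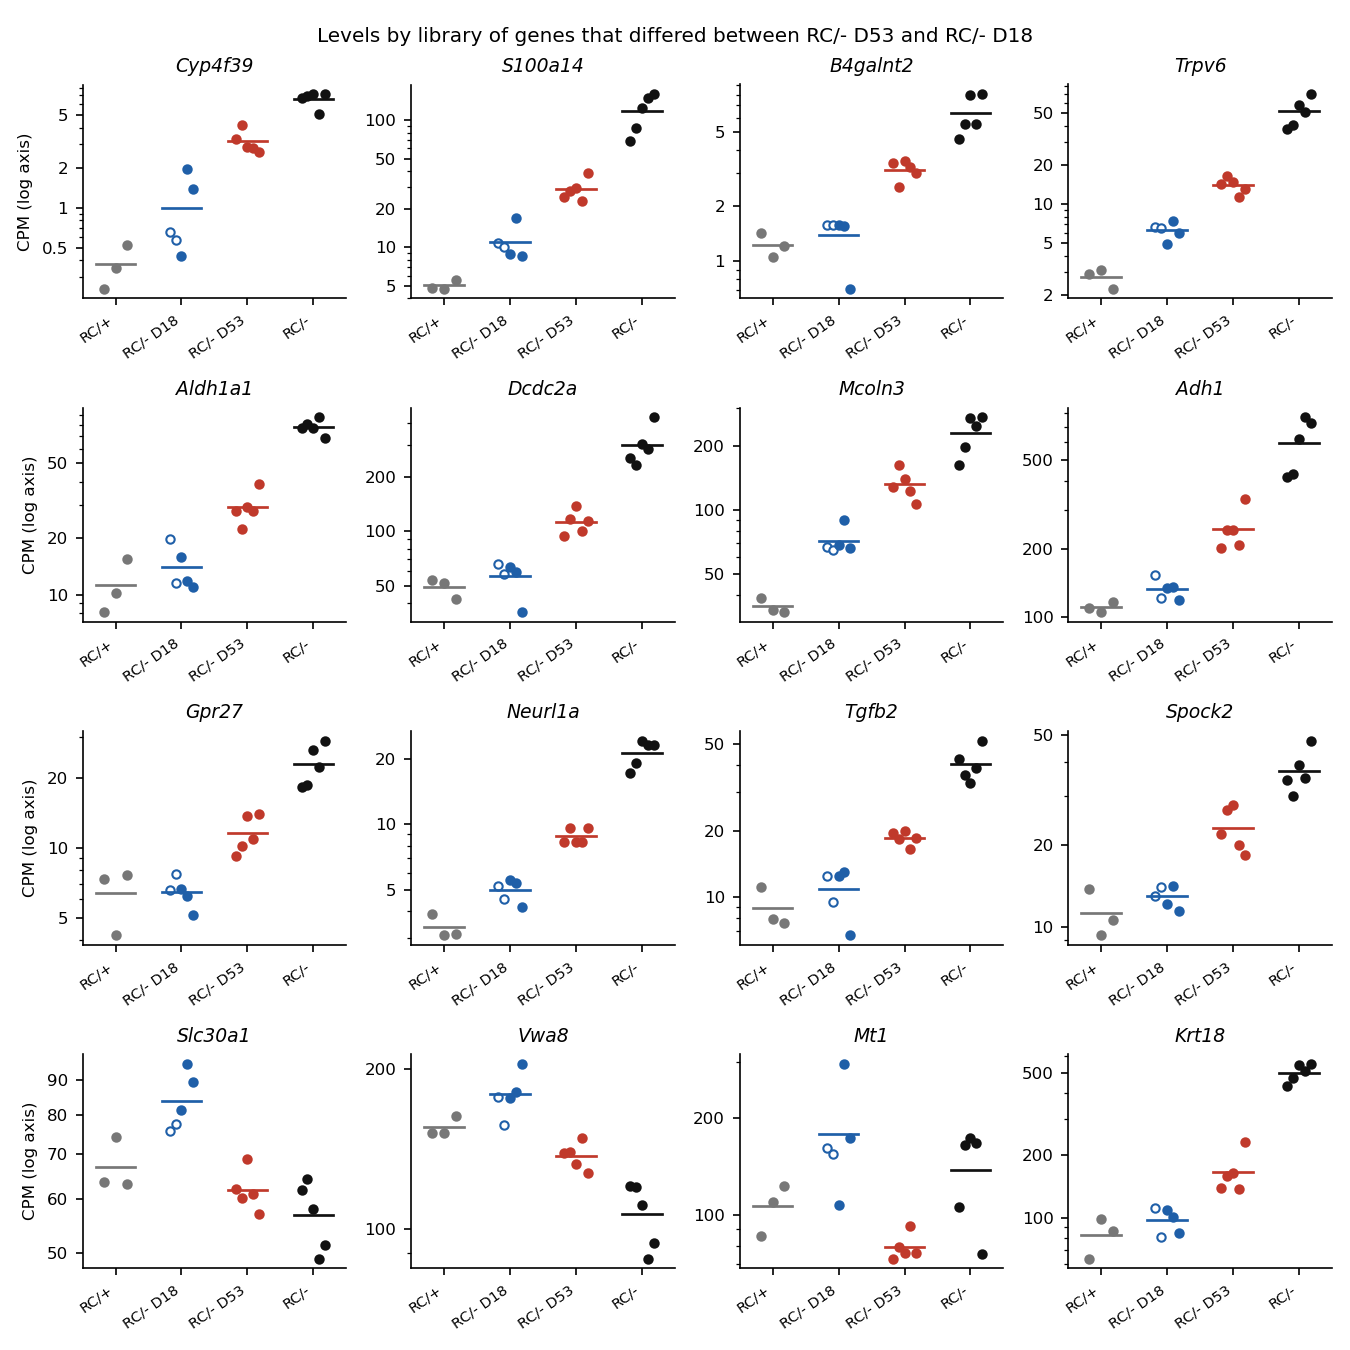
CPM in each RC/- D18 and RC/- D53 library (points, open for replicates 18 and 19), with the group mean (line), for leading genes of the comparison on a log axis, with the unedited RC/+ and RC/- libraries beside them. Trpv6 reads 4.94 to 7.45 CPM in RC/- D18 and 11.4 to 16.3 CPM in RC/- D53, between RC/+ (mean 2.78 CPM) and unedited RC/- (mean 51.4 CPM).

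Krt8, Krt18, Tpm1 and Actn1, of the cytoskeleton, and Cldn3 and Cdh3, of cell junctions, were also called higher in RC/- D53. Krt8, a keratin that forms intermediate filaments of simple epithelia together with Krt18, was at 253, 228, 236, 241 and 209 CPM in D18 and at 289, 323, 309.7, 289 and 387 CPM in D53 (log2 fold change 0.45, SE 0.0761, adjusted p = 0.00913). Its partner Krt18 was at 111, 80.3, 109, 101 and 84.0 CPM and at 139, 159, 164, 137 and 231 CPM (0.76, SE 0.134, adjusted p = 0.00994). Both were separated between the lines, and both were highest in RC/- D53 replicate 27. Tpm1, an actin-binding tropomyosin, was 306, 303, 312, 293 and 239.5 CPM against 369, 391, 455, 380.1 and 507 CPM (0.53, SE 0.0903, adjusted p = 0.00913). Tpm1 is also expressed in muscle, and the skeletal muscle sum was 85.6 and 96.3 CPM in RC/- D18 replicates 18 and 19 and 302 to 384 CPM in the other 8 libraries. Against replicates 20 to 22 the Tpm1 difference was 0.58 on the log2 scale (adjusted p = 0.0312). The junction genes Cldn3 (a claudin) and Cdh3 (P-cadherin) had log2 fold changes of 0.58 and 0.63, and each was separated between the lines. Both calls were fragile. Cldn3 lost its call in 5 of the 9 other settings and in 9 of the 10 fits that left out a library. Cdh3 lost its call in 4 and 7 of these, and one of the 4 was the fit against replicates 20 to 22. Actn1, which crosslinks actin, was called (0.38, adjusted p = 0.0206) although the lines overlapped, at 71.5 to 94.7 CPM in D18 and 94.7 to 114 CPM in D53.

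Dcdc2a, a doublecortin-domain protein that binds microtubules and is found in cilia, was at 65.8, 58.2, 63.0, 59.4 and 35.7 CPM in D18 and at 94.6, 117, 137, 101 and 114 CPM in D53. RC/- D18 replicate 22 was far below the rest of its group. The difference was 1.02 on the log2 scale (SE 0.173, adjusted p = 0.00913), and 1.13 (adjusted p = 0.0312) against replicates 20 to 22.

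Csf1, Tgfb2, Btc, Lgals3 and Spock2, which encode secreted proteins, and the cytokine receptor gene Il1r1 were among the 55. Csf1, the growth factor of macrophages, was at 19.1, 21.9, 18.4, 17.9 and 14.96 CPM in D18 and at 24.1, 31.4, 31.5, 23.6 and 26.3 CPM in D53 (log2 fold change 0.57, SE 0.110, adjusted p = 0.0213). Tgfb2, a ligand of the TGF-beta family, was 12.5, 9.44, 12.5, 12.98 and 6.68 CPM against 19.7, 18.4, 19.9, 16.5 and 18.6 CPM (0.82, SE 0.153, adjusted p = 0.0163). The lines were separated for both, and RC/- D18 replicate 22 was the lowest library for both. Btc, which encodes the EGF receptor ligand betacellulin, was 18.9, 18.7, 18.95, 29.0 and 21.96 CPM against 36.2, 53.9, 46.6, 39.5 and 35.04 CPM (0.97, SE 0.174, adjusted p = 0.00994). Its call was lost against replicates 20 to 22 (0.86, adjusted p = 0.0603). Il1r1, the receptor of interleukin-1, was 20.8 ± 2.68 CPM in D18 and 30.7 ± 3.98 CPM in D53 (SD, n = 5 each, 0.56, adjusted p = 0.00994). Lgals3, the sugar-binding protein galectin-3, was 87.5 ± 8.17 CPM and 141 ± 18.5 CPM (SD, n = 5 each, 0.68, adjusted p = 0.023). Spock2, a secreted proteoglycan, was 12.9 ± 1.15 CPM and 22.9 ± 4.17 CPM (SD, n = 5 each, 0.81, adjusted p = 0.00913).

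The enzyme genes Adh1 and Aldh1a1 (retinoids) and Cyp4f39, Scd2, Degs2, Ugt8a and Lpcat4 (lipids) were called higher as well. Adh1, an alcohol dehydrogenase that also oxidises retinol, was at 154, 122, 136, 137 and 119.9 CPM in D18 and at 202, 244, 245, 209.6 and 335 CPM in D53 (log2 fold change 0.87, SE 0.153, adjusted p = 0.00994). Aldh1a1, which turns retinaldehyde into retinoic acid, was 19.7, 11.5, 15.9, 11.9 and 10.98 CPM against 28.02, 22.4, 29.4, 27.9 and 38.6 CPM (1.07, SE 0.198, adjusted p = 0.0134). Neither gene had a D53 library as low as any D18 library. Cyp4f39, a cytochrome P450 of fatty acid hydroxylation, was low throughout, at 0.657, 0.575, 0.432, 1.95 and 1.39 CPM against 3.28, 4.19, 2.86, 2.80 and 2.63 CPM (1.76, SE 0.286, adjusted p = 0.0069). RC/- D18 replicates 21 and 22 were the highest of their group for this gene, and the log2 fold change against replicates 20 to 22 was 1.47. Scd2, a fatty acid desaturase, was 235 ± 22.6 CPM in D18 and 327 ± 28.2 CPM in D53 (SD, n = 5 each, 0.48, adjusted p = 0.00994). The sphingolipid enzymes Degs2 and Ugt8a and the phospholipid acyltransferase Lpcat4 had log2 fold changes of 0.69, 0.51 and 0.50.

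Other higher genes that the naming rule takes were B4galnt2 (a glycosyltransferase, log2 fold change 1.17), Gpr27 (an orphan receptor, 0.83) and Neurl1a (a ubiquitin ligase, 0.82). Outside that rule, Cyp4x1 (1.67), Bglap (1.34) and Gm33051 (1.07) also passed 1. Cyp4x1, a cytochrome P450, stood at 0.0876 to 0.235 CPM in D18 and 0.448 to 0.828 CPM in D53. Neurl1a was at 4.19 to 5.57 CPM in D18 and 8.28 to 9.61 CPM in D53, with no library between the groups. Gm2016 was listed at 0 in all 5 RC/- D18 libraries and at 0.162 to 0.686 CPM in RC/- D53, so no fold is given. Exons of Gm33051, C130071C03Rik, Prss23, B4galnt2, Cyp4x1 and Degs2 share 10.7% to 58.03% of their bases with another gene. Which strand was counted is not stated, so the reads of these 6 cannot be assigned to one gene with certainty.

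Among the 5 lower genes, a pair handles zinc. Slc30a1, the zinc exporter of the plasma membrane, was at 75.9, 77.5, 81.5, 95.2 and 89.6 CPM in RC/- D18 and at 62.2, 60.3, 68.9, 61.1 and 57.0 CPM in RC/- D53. The lines were separated, and the log2 fold change was -0.44 with all libraries (SE 0.0778, adjusted p = 0.00994) and -0.52 (adjusted p = 0.0195) against replicates 20 to 22. Mt1, a metallothionein that binds zinc and copper, was at 161, 155, 108, 295 and 174 CPM against 73.1, 79.4, 76.2, 92.1 and 76.0 CPM (log2 fold change -1.09, SE 0.224, adjusted p = 0.0293). The D18 kidneys spread over a wide range and the D53 kidneys over a narrow one. Against replicates 20 to 22 the Mt1 difference was -1.16 and missed the threshold (adjusted p = 0.0582). The Mt1 call was also lost with no filter and in 8 of the 10 fits that left out a library. Mt2, the neighbouring metallothionein, was singled out with its values in view. It was at 1.45 to 4.74 CPM in D18 and 0.519 to 1.299 CPM in D53 (-1.56, adjusted p = 0.1), but 73.5% of its exon bases overlap a gene on the other strand.

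Metal response elements are the promoter letters through which the zinc sensor MTF-1 is known to act on metallothionein genes and Slc30a1, and they are shown for that reason. Promoters of 300 bases from RefSeq (GRCm38.p6, 250 bases before to 50 after the start site) were searched on both strands for TGCACNC and TGCGCNC, which cannot match at the same place, and a 30-base stretch of each is printed with the matched letters in capitals. The stretches cover chr8:94179086-94179115 (Mt1, from 3 bases before to 26 after the start site), chr8:94172384-94172413 (Mt2, 234 to 205 bases before it) and chr1:191906727-191906756 (Slc30a1, 54 to 25 bases before it), all on the plus strand.
Mt1 promoter: agctcTGCACTCcgcccgaaaagTGCGCTC
Mt2 promoter: agcatcgcctcTGCACCCggcccctcgggc
Slc30a1 promoter: acgggggttccGAGTGCAaagcaaagtttt
The Mt1 promoter held 3 matches, that of Mt2 held 4 and that of Slc30a1 held 2, with the Slc30a1 letters printed here read on the other strand. Of 32851 promoters, 25.7% held at least 1 match, 7.11% at least 2, 1.97% at least 3 and 0.517% at least 4. A match is a description of the letters, and these 3 genes were picked for the search after their values were seen.

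The remaining lower genes do not share that role. Vwa8, a mitochondrial ATPase-domain protein, was at 177, 157, 176, 181 and 204 CPM in D18 and at 139, 139, 133, 148 and 127 CPM in D53 (log2 fold change -0.38, SE 0.0797, adjusted p = 0.0339). Gm28438, an unprocessed pseudogene on chromosome 1, was at 9.89 to 13.8 CPM in D18 and 1.75 to 2.45 CPM in D53 (-2.49, adjusted p = 0.00329). Its log2 fold change between the noncystic kidneys of these lines was -2.44 (adjusted p = 0.153), and it lies in a nuclear copy of mitochondrial DNA, so its reads are uncertain. Guca1b, an activator of guanylate cyclase, stayed under 1.4 CPM in all 10 libraries (-2.68, adjusted p = 0.04). Further genes that the naming rule takes on the lower side, Flcn, Nr1d2 and Agps, missed the threshold (adjusted p = 0.0517, 0.0652 and 0.0808).

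The genes that were higher in RC/- D53 were compared with the disease difference in unedited mice. The group means of this comparison share no library with those above, but one model of all 24 libraries set the spread for both. In unedited RC/- against RC/+ kidneys, 5753 genes (25.5%) were higher and 2744 (12.2%) lower. Of the 55 genes higher in RC/- D53, 53 were also among those higher in unedited RC/-, and 54 had a mean above RC/+, against 62.1% of all genes tested. The exceptions to a call were Gm2016 (-0.38) and Bglap (0.05), both below 1 CPM. S100a14 and Trpv6, for example, were 5.03 ± 0.477 CPM and 2.78 ± 0.468 CPM in RC/+ (SD, n = 3) and 118 ± 39.1 CPM and 51.4 ± 13.03 CPM in unedited RC/- (SD, n = 5). The median log2 fold change of the 55 with disease was 1.85. On the scale from the RC/+ mean (0%) to the unedited RC/- mean (100%) of log2 CPM, their median position was 13.3% in RC/- D18 and 49.5% in RC/- D53, where the order of these values is fixed by how the 55 were chosen. The 5 lower genes showed no such pattern: Slc30a1 (-0.24) and Vwa8 (-0.55) were lower in unedited RC/-, Gm28438 (1.33) and Guca1b (2.10) were higher, and Mt1 (0.32, adjusted p = 0.365) missed the threshold.

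**Figure D2:**
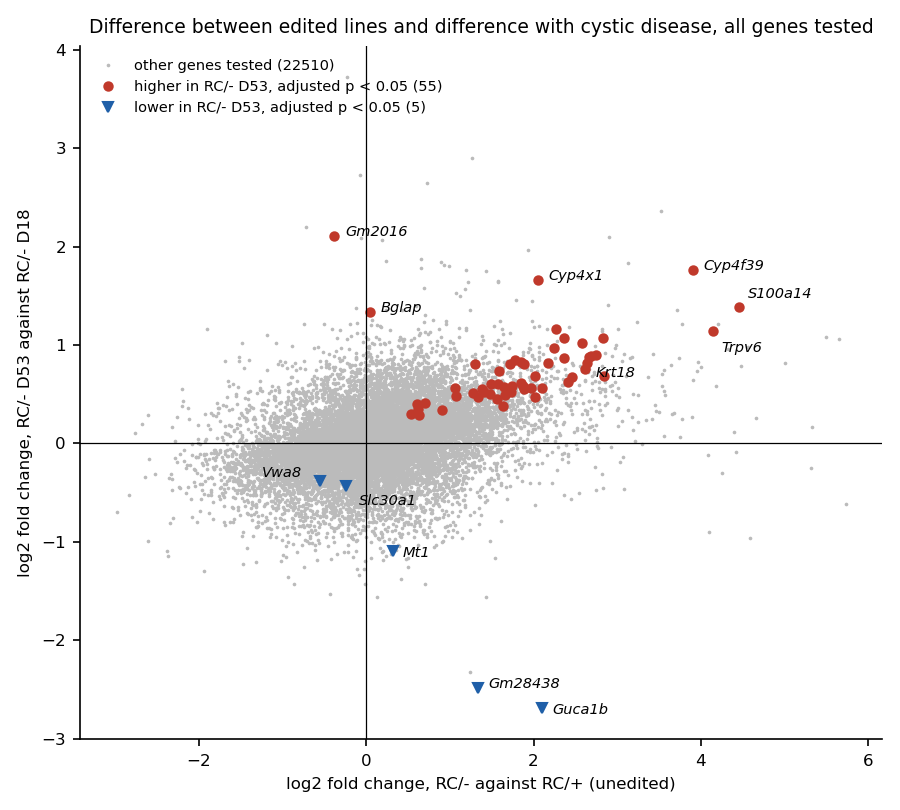
Log2 fold change of RC/- D53 against RC/- D18 (vertical axis) plotted over that of unedited RC/- against RC/+ (horizontal axis) for the 22570 genes tested. All but 1 of the 55 called higher genes (circles) lie right of 0 on the horizontal axis, while the 5 lower genes (triangles) lie on both sides.

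The same relation was seen over all genes, whether or not they passed between the lines. The 5753 genes higher in unedited RC/- had a median log2 fold change of 0.13 in RC/- D53 against RC/- D18, with 81.2% above 0, and the 2744 lower genes a median of -0.10, with 24.96% above 0. Over all genes tested the median was 0.03 and 56.1% were above 0. Across the 22570 genes Pearson's r between both log2 fold changes was 0.37, and 0.55 over the 15115 genes whose mean log2 CPM was 0 or more. In RC/+ D53 against RC/+ D18 kidneys, without cystic disease, the lean had the same direction and was smaller. There the higher and lower genes had medians of 0.05 and -0.03, with 63.1% and 41.7% above 0, against 54.0% over all genes. Pearson's r with the disease difference was 0.11 for these noncystic kidneys. Genes are not independent replicates, so these values carry no p.

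By library, the median deviation of the 55 genes from their mean over the 10 edited RC/- libraries placed each RC/- D18 kidney between -0.54 (replicate 22) and -0.20 (replicate 21) on the log2 scale, and each RC/- D53 kidney between 0.18 (replicate 26) and 0.39 (replicate 27). Unedited RC/- kidneys lay at 1.03 to 1.39, and RC/+ kidneys at -0.60 to -0.54. On these 55 genes RC/- D18 replicate 22 lay at the upper edge of the range of the unedited RC/+ kidneys. It lay above the RC/+ D18 kidneys of its own line, which were at -0.93 to -0.60. No RC/- D53 kidney reached the range of unedited RC/-. The 55 were chosen for lower values in RC/- D18 than in RC/- D53, and replicate 22 was among the libraries that chose them. Its place on this scale is therefore partly set by that choice.

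**Figure D3:**
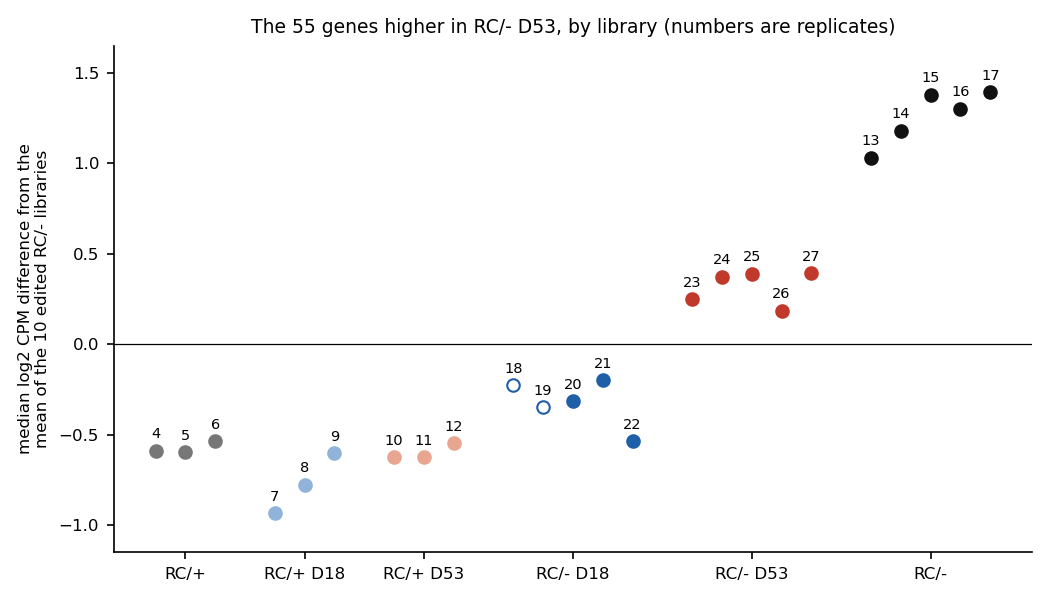
Median deviation (log2 CPM) of the 55 genes higher in RC/- D53 from their mean over the 10 edited RC/- libraries, with 1 point per library by group (open for replicates 18 and 19). The genes were chosen for the difference between RC/- D18 and RC/- D53. The other 4 groups took no part in that difference, but they helped to set the filter and the spread it was tested against. RC/+ libraries lie at -0.60 to -0.54 and unedited RC/- libraries at 1.03 to 1.39.

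Whether the lines also differ with an intact second allele was asked in RC/+ D53 against RC/+ D18 kidneys, 3 against 3. Sex was unequal here by Xist and Ddx3y counts. RC/+ D18 replicates 7 and 8 were female and 9 male, and RC/+ D53 replicate 11 was female and 10 and 12 male. With sex as a covariate 0 genes passed. A single gene passed (0.00443% of those tested), the ribosomal protein pseudogene Rps13-ps1 (log2 fold change 1.04, adjusted p = 0.0337), and 1573 genes (6.97%) had an unadjusted p below 0.05. Other genes near-identical to this pseudogene may share its reads. The 55 genes higher in RC/- D53 had a median log2 fold change of 0.11 here, with 43 above 0, against 0.02 and 54.0% over all genes tested. RC/+ D18 kidneys lay at -0.93 to -0.60 and RC/+ D53 kidneys at -0.62 to -0.55 on the deviation scale used above. Several of the named genes stood at much the same mean in both RC/+ lines, for example S100a14 at 4.51 ± 1.43 CPM and 4.40 ± 0.530 CPM, Scnn1g at 67.9 ± 12.1 CPM and 67.9 ± 1.41 CPM and Lgals3 at 60.3 ± 2.24 CPM and 60.3 ± 5.42 CPM (SD, n = 3 each, RC/+ D18 first). Neurl1a, Aldh1a1 and Cyp4f39 had log2 fold changes of 0.59, 0.64 and 0.97 there, none past the threshold (adjusted p = 0.646, 0.649 and 0.646).

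The interaction, which tests if the line difference in RC/- kidneys is unequal to that in RC/+ kidneys, gave 0 genes (0.0%) at an adjusted p below 0.05 by limma, with 884 (3.92%) at an unadjusted p below 0.05. By edgeR there were 0 and 873, and by DESeq2 0 and 831. The interaction values of S100a14, Trpv6 and Mcoln3 were 1.38, 0.97 and 0.82 on the log2 scale (unadjusted p = 0.000704, 0.00122 and 0.000744, adjusted p = 1 for each). No gene can therefore be said to differ between the lines in RC/- kidneys alone. Against the RC/+ kidneys of their own line, the 55 genes had a median log2 fold change of 0.42 in RC/- D18 and of 0.95 in RC/- D53, both of which use the libraries that chose these genes.

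Gene lists for nephron segments, disease and metabolism are described by their counts and medians. Over all genes tested, 0.244% were called higher and 0.0222% lower, 9.44% and 3.82% had an unadjusted p below 0.05 in those directions, and 56.1% were above 0. Against replicates 20 to 22 the unadjusted shares were 12.1% and 4.09%, and 59.5% were above 0. DESeq2 called 1.28% higher and 0.45% lower with all libraries, and 3.16% and 1.67% against replicates 20 to 22, of the genes to which it gave an adjusted p. In bulk kidney RNA, fewer cells of a type and less RNA per cell cannot be told apart. Collecting duct principal cell genes were mostly above 0: of 10 tested, 2 were called higher (Scnn1g and Gata3), 0 lower and 9 were above 0, with a median log2 fold change of 0.44 against 0.03 over all genes. The lines did not overlap in 6 of the 10, all higher, as in 1.94% of all genes tested. DESeq2 called 4 higher with all libraries and 2 against replicates 20 to 22. Gata3, a transcription factor of the nephric duct and collecting duct, was at 36.4, 35.03, 35.4, 37.6 and 39.2 CPM in D18 and at 43.2, 56.4, 49.6, 45.6 and 61.7 CPM in D53 (log2 fold change 0.47, SE 0.101, adjusted p = 0.0442). Its call was lost against replicates 20 to 22 (0.44, adjusted p = 0.0864). The Gata3 call was also lost with TMM factors, by edgeR, with no filter and with these groups alone. Of the 10 fits that left out a library, 8 lost it.

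The other principal cell genes missed the threshold. Fxyd4, a regulator of the sodium pump, differed by 0.54 on the log2 scale (adjusted p = 0.0629). Hsd11b2, which inactivates glucocorticoids in aldosterone target cells, had 0.55 (adjusted p = 0.0808), and Scnn1b, the beta subunit of the sodium channel, 0.40 (adjusted p = 0.181). The water channel Aqp2 overlapped widely, at 397 to 746 CPM in D18 and 495 to 1254 CPM in D53 (adjusted p = 0.609). The summed level of the list was 1620 to 2030 CPM in RC/- D18 and 2095 to 3375 CPM in RC/- D53, against 1322 to 1640 CPM in RC/+ and 3023 to 5384 CPM in unedited RC/-. In the RC/+ kidneys of the edited lines it was 1320 to 1956 CPM (RC/+ D18) and 1199 to 1345 CPM (RC/+ D53). The RC/- D18 range thus overlapped that of RC/+ D18.

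The keratin list (10 tested) had 2 genes called higher, Krt8 and Krt18 (0.244% of all genes), 9 above 0 (56.1% of all genes) and a median of 0.41. Its sums were 667 to 777 CPM in RC/- D18 and 882 to 1208 CPM in RC/- D53. The tubule injury list (12 tested) shares these called keratins and had a median of 0.15, which became 0.34 against replicates 20 to 22. Lcn2, a secreted marker of tubule injury, was at 21.1, 16.2, 14.4, 9.40 and 6.29 CPM in D18 and at 14.1, 22.02, 31.5, 20.9 and 57.8 CPM in D53 (log2 fold change 1.06, adjusted p = 0.21). These libraries overlapped, with the largest value in RC/- D53 replicate 27, and all were far below the 334 ± 95.7 CPM of unedited RC/- (SD, n = 5).

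The chemokine and cytokine list (16 tested) had 1 gene called higher, Csf1, 12 above 0 and a median of 0.14. The macrophage list (15 tested) had 0 called by limma, edgeR or DESeq2, 8 higher at an unadjusted p below 0.05 (9.44% of all genes), 14 above 0 and a median of 0.31. Lyz2, the macrophage lysozyme, was at 48.8, 50.3, 48.2, 49.9 and 45.7 CPM in D18 and at 62.4, 77.6, 66.5, 54.5 and 70.2 CPM in D53 (log2 fold change 0.44, adjusted p = 0.178). C1qa, a complement subunit made by macrophages, had 0.37 (adjusted p = 0.235), and both genes were separated between the lines. The macrophage sums were 474 to 523 CPM in RC/- D18 and 502 to 802 CPM in RC/- D53, the highest in replicate 24, which also had the high MHC class II sum.

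**Figure D4:**
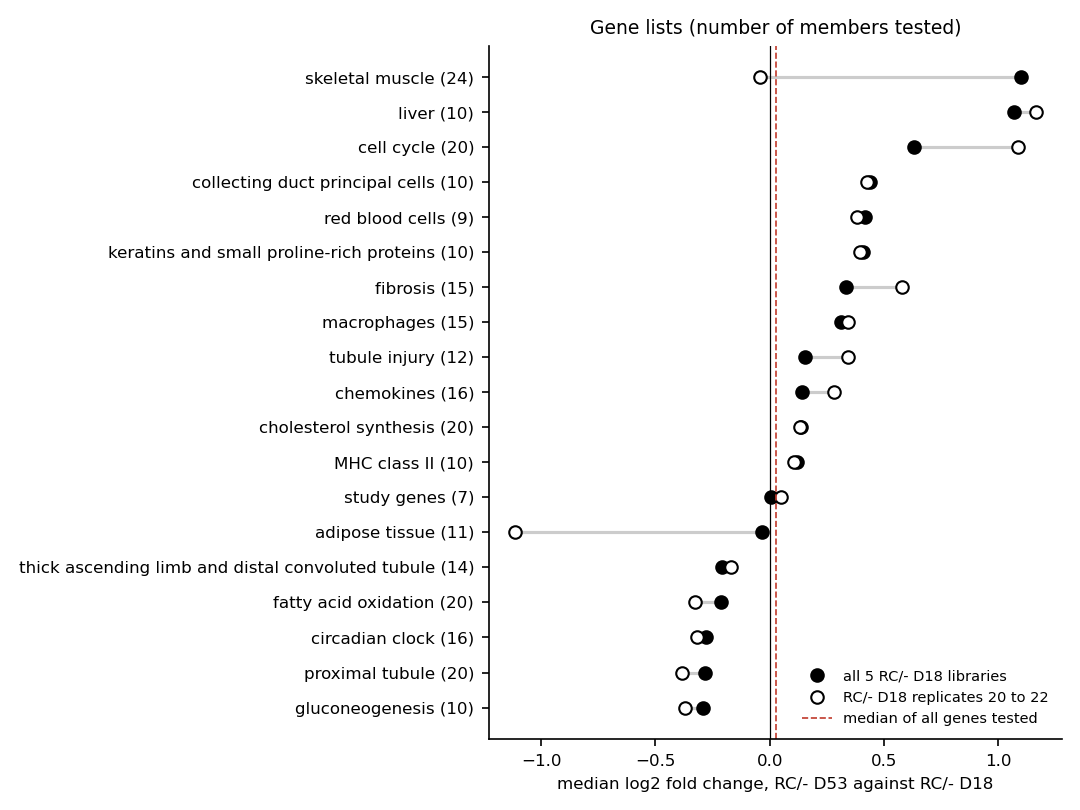
Median log2 fold change of each gene list in RC/- D53 against RC/- D18, with all 5 RC/- D18 libraries and with replicates 20 to 22 only. Collecting duct and keratin lists lie at 0.44 and 0.41 with all libraries, the proximal tubule list at -0.28, and the skeletal muscle list moves from 1.10 to -0.04.

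The medians of the proliferation and fibrosis lists fell without 1 RC/- D18 library but stayed above 0. The cell cycle list (20 tested) had 0 called by limma, edgeR or DESeq2 and 14 higher at an unadjusted p below 0.05. All 20 were above 0, with a median of 0.63 that fell to 0.31 without RC/- D18 replicate 22 and was 1.09 against replicates 20 to 22. There limma and edgeR called 0, DESeq2 called 9 higher and all 20 were higher at an unadjusted p below 0.05. Ccnb1, a mitotic cyclin, was at 19.3, 20.03, 16.7, 11.4 and 4.58 CPM in D18 and at 20.7, 16.5, 28.3, 27.4 and 25.2 CPM in D53 (log2 fold change 0.86, adjusted p = 0.258). The D18 replicates 18 to 20 reached the lower D53 values and replicates 21 and 22 did not. In RC/+ D53 against RC/+ D18 kidneys the median of this list was 0.97, with 20 of 20 above 0, 0 called. The fibrosis list (15 tested) had 0 called by the 3 tools, 3 higher at an unadjusted p below 0.05 and a median of 0.33, which was 0.11 without RC/- D18 replicate 22 and 0.32 between the RC/+ lines. Its median was 0.58 against replicates 20 to 22, with 0 called by limma and edgeR, 6 higher by DESeq2 and 11 higher at an unadjusted p below 0.05. Acta2, the actin of smooth muscle and myofibroblasts, overlapped between the groups, at 52.1 to 135 CPM in D18 and 109 to 292 CPM in D53 (0.77, adjusted p = 0.23).

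Proximal tubule genes lay on the lower side in RC/- D53. All 20 tested were below 0, with a median of -0.28, 0 called by limma, edgeR or DESeq2 and 7 lower at an unadjusted p below 0.05, where 3.82% of all genes were lower at that p and 56.1% lay above 0. With only replicates 20 to 22 in the RC/- D18 group, limma and edgeR called 0, DESeq2 called 3 lower and 9 were lower at an unadjusted p below 0.05. Between the RC/+ lines (D53 against D18) the median of this list was -0.13, with 0 called by limma. There 2 of 20 were above 0, against 54.0% of all genes. Slc22a8, an organic anion transporter, was at 301, 314, 288, 396 and 436 CPM in D18 and at 242, 276, 212, 269 and 259.9 CPM in D53 (log2 fold change -0.45, adjusted p = 0.286). Slc5a2, the glucose transporter of the early proximal tubule, was 281 to 494 CPM against 208 to 332 CPM (-0.66, adjusted p = 0.246). The former was separated between the lines and the latter was not. Summed over the list, RC/- D18 kidneys held 22544 to 30282 CPM and RC/- D53 kidneys 18638 to 21944 CPM, with 24838 to 25957 CPM in RC/+ and 6842 to 12493 CPM in unedited RC/-.

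Metabolic genes of the same segment also lay below 0. All 10 gluconeogenesis genes were below 0 (median -0.29, 0 called by any of the 3 tools, 5 lower at an unadjusted p below 0.05), and DESeq2 called 2 lower against replicates 20 to 22. Pck1, the enzyme that commits carbon to glucose, was 2057 to 4841 CPM in D18, highest in replicate 22, and 1408 to 2159 CPM in D53 (-0.64, adjusted p = 0.295). All 20 fatty acid oxidation genes were below 0 (median -0.21), with 0 called by limma or edgeR, 1 lower by DESeq2 and 12 lower at an unadjusted p below 0.05. Against replicates 20 to 22 the median was -0.33, and Acadvl, a mitochondrial acyl-CoA dehydrogenase, was called (-0.52, adjusted p = 0.0355). There edgeR called 1 of the 20 lower and DESeq2 12, and 15 were lower at an unadjusted p below 0.05. Acadvl shares 42.9% of its exon bases with another gene. Between the RC/+ lines (D53 against D18) the gluconeogenesis median was -0.18, with 2 of 10 above 0. The fatty acid oxidation median there was -0.10, with 5 of 20 above 0, and limma called 0 in either list. The list of thick ascending limb and distal convoluted tubule (14 tested, 0 called by the 3 tools, 5 lower and 1 higher at an unadjusted p below 0.05) had a median of -0.21.

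Of the circadian clock list (16 tested), limma and edgeR called 0 and DESeq2 called 3, all lower, 7 were lower at an unadjusted p below 0.05, and the median was -0.28. DESeq2 called 6 lower against replicates 20 to 22. Tef, a clock output transcription factor, was at 176, 201, 179.6, 197 and 259.7 CPM in D18 and at 154, 171, 151, 159 and 129 CPM in D53 (-0.40, adjusted p = 0.104), and Per1, a core repressor, was at 113 to 128 CPM against 76.8 to 116 CPM (-0.48, adjusted p = 0.098). Tef was separated, and the Per1 overlap rested on RC/- D53 replicate 24. The hour at which the mice were killed is not stated in the sources used here, and its part in these values was not tested.

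Pkd1 itself did not pass the test. It was at 58.1, 71.4, 60.2, 61.0 and 53.8 CPM in RC/- D18 and at 60.2, 54.7, 63.5, 59.0 and 38.4 CPM in RC/- D53 (log2 fold change -0.16, SE 0.104, adjusted p = 0.542). The groups overlapped, and RC/- D53 replicate 27 was the lowest of the 10. These counts hold the transcripts of both alleles over the whole gene and of cells without Cre, so they do not read the edited allele alone. The study did read the RC allele by RNA-seq, with both founders shown. It reports higher usage of that allele in edited than in unedited RC/- kidneys, a contrast not made here. Of 259 tested genes within 5 Mb of Pkd1, 0 were called by limma, with 45 (17.4%, against 13.3% of all genes) at an unadjusted p below 0.05. A single gene of this window (1 of 259) was called against replicates 20 to 22, the claudin gene Cldn6 (log2 fold change 1.23, adjusted p = 0.04, and 0.93, adjusted p = 0.0975, with all libraries). The other genes that the study followed also missed the threshold, with log2 fold changes of 0.21 for the oncogene Myc (adjusted p = 0.536), 0.31 for the macrophage receptor Mrc1 (adjusted p = 0.411), -0.05 for the RNA methyltransferase Mettl3, 0.03 for the Hippo effector Yap1, 0.01 for Creb1 and -0.00 for Pkd2. Myc was 15.1 ± 1.53 CPM in D18 and 17.6 ± 2.64 CPM in D53 (SD, n = 5 each), where replicate 27 was at 22.2 CPM and the others at 15.6 to 17.01 CPM. Signs of Yap1 and Creb1 turned under TMM factors, edgeR and DESeq2. The study followed these other genes mainly as protein, in phosphorylated form for Creb1, and in edited against unedited kidneys or cells. The RNA values here compare the edited lines with each other and do not read those proteins.

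Skeletal muscle transcripts split the RC/- D18 group and not the RC/- D53 group. Myh4, a fast myosin heavy chain found in skeletal muscle fibres, was at 0, 0, 50.5, 45.7 and 55.2 CPM in RC/- D18 and at 45.7, 57.4, 49.8, 50.3 and 50.2 CPM in RC/- D53. Over the 8 libraries that held it the coefficient of variation was 8.06% for Myh4, 8.48% for the muscle actin Acta1 and 11.8% for the troponin Tnnt3, while Myh4 never passed 0.204 CPM in the other 16 libraries of the series. Of 24 muscle genes tested, 0 were called by limma, edgeR or DESeq2 with all libraries (16 higher at an unadjusted p below 0.05, median 1.10) and 0 against replicates 20 to 22 (0 at an unadjusted p below 0.05, median -0.04). A set of 21 genes was high in these 8 libraries, 14 of them from the muscle list, and none was among the 60 called genes. What sets the 8 libraries apart is not given in the labels, and its part in the differences above was not tested beyond leaving out replicates 18 and 19.

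**Figure D5:**
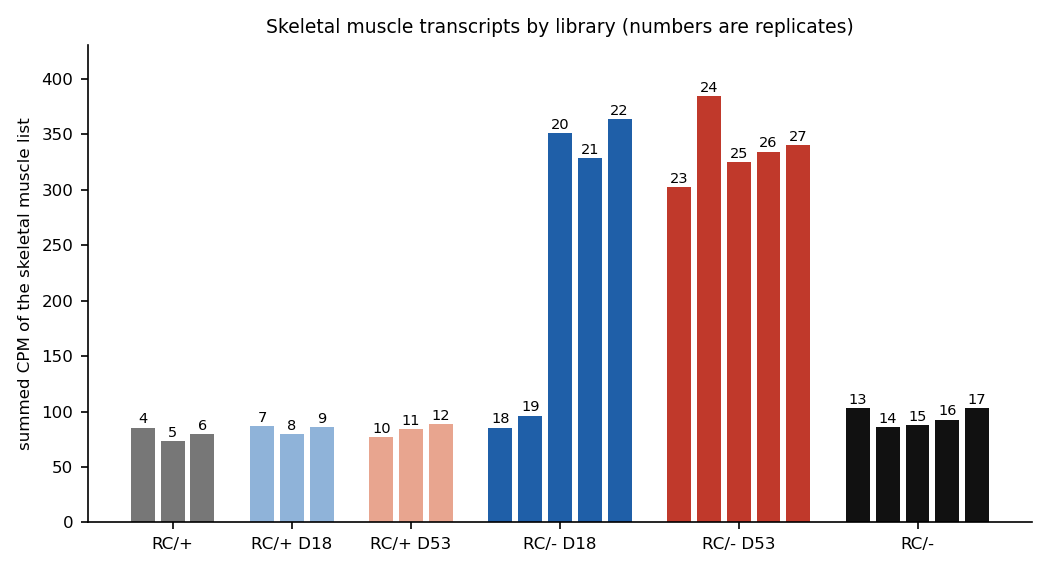
Summed CPM of the skeletal muscle list in each of the 24 libraries by group. RC/- D18 replicates 18 and 19 lie at 85.6 and 96.3 CPM with the other groups, and replicates 20 to 22 lie with all RC/- D53 libraries at 302 to 384 CPM.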

How the data were processed

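Whole kidney RNA-seq read counts were analysed for 24 mice, 1 library each. The authors trimmed paired reads with Trim Galore (0.6.3) and aligned them to GRCm38 with STAR (2.5.3a). The deposited table holds raw counts per gene for 54532 Ensembl genes, not normalized, and 0 columns were left unused. Which strand was counted is not given in the sources used here. Positions came from GENCODE M21, which matched 54495 identifiers.

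The main test was limma-trend (limma 3.58.1, R 4.3.3) on log2 CPM, computed from the deposited counts and library totals with edgeR 4.0.16 (prior count 2), for the 22570 genes whose mean log2 CPM reached -3. One model with 6 group means was fitted to the 24 libraries. Tests were two-sided, with Benjamini-Hochberg adjusted p below 0.05 as the threshold. Fold changes are on this log2 scale, which understates those of low genes, and CPM are not corrected for gene length. Nothing says that mice of a group came from separate litters, so p-values measure the spread between these mice. The members, lists and tests were chosen with earlier results of these data known.

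Data were simulated with these groups and 22570 genes, each gene drawn independently. The genes changed were drawn from those with a mean of at least 1 CPM in the 10 libraries, so lower genes were not tried. Of those changed by 1 and by 0.5 (log2), 87% and 55% were recovered, and 83% and 41% with RC/- D18 replicates 20 to 22. Named genes were the study's genes; the 12 with the largest increase and decrease that passed with all and with replicates 20 to 22, did not overlap and reached 1 CPM in one group (filled from lesser criteria under 6 genes); 4 per list with the lowest p; and 6 muscle genes. Others were named after their values were seen. Alternatives were TMM factors, the edgeR quasi-likelihood test, DESeq2 1.42.0, other filters and prior count, sex as a covariate, these groups alone, and leaving out each library.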

Additional observations from a re-analysis of the deposited data

Results flagged for a closer look

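A gap test (Dixon's, at 95%) was applied to the highest and lowest library of each RC/- D18 and RC/- D53 group of 5, over 254 groups of gene levels and list sums. It marked 23 groups (9.06%), where chance marks about 1 in 20.

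RC/- D53 replicate 27 was the high library for Tmem141 (22.7 CPM), Krt18 (230.6 CPM), Myc (22.2 CPM), Timp1 (4.37 CPM), Ttr (188 CPM), Gm2016 (0.686 CPM), Guca1b (0.361 CPM) and the summed keratin list (1208 CPM). RC/- D53 replicate 24 was high for Pde3b (64.4 CPM), Tnnt3 (29.1 CPM), Scnn1b (243 CPM), Aqp3 (475 CPM), Per1 (116 CPM) and the summed MHC class II list (548 CPM, against 158 to 171 CPM in the others). RC/- D53 replicates 23, 25 and 26 were each high once, for Bglap (0.486 CPM), Alb (88.3 CPM) and Slc5a2 (332 CPM).

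Among RC/- D18 libraries, replicate 21 was high for S100a14 (17.1 CPM) and Mcoln3 (89.7 CPM). Replicate 22 was low for Tpm1 (239.5 CPM), B4galnt2 (0.711 CPM), Dcdc2a (35.7 CPM) and Ttr (94.2 CPM).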

How the results depend on the processing

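All 60 genes kept their direction in the 9 other settings and without each of the 10 libraries, and 18 kept their call in all of them. For RC/- D53 against RC/- D18, DESeq2 called 276 genes and a log2 fold change of at least 1 left 13. Without each library in turn there were 19 to 59. With RC/- D18 replicates 20 to 22, there were 44 genes with TMM factors, 32 by edgeR, 751 by DESeq2, 14 with no filter, 136 with a filter of 1 CPM in 3 libraries, 42 with these groups alone and 18 at a log2 fold change of at least 1. Leaving out a library gave 0 to 753 genes there, with 23 without RC/- D18 replicate 21, 253 without RC/- D53 replicate 24 and 28 without RC/- D53 replicate 26. RC/+ D53 against RC/+ D18 gave 0 genes with TMM factors, 2 by edgeR, 4 by DESeq2, 2 with no filter, 2 with these groups alone, 0 with sex as a covariate and 0 without each library. The interaction gave 0 in every setting. The cause of these moves was not tested.

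Signs turned for genes near 0. Without a library in turn Pkd2 ranged from -0.0306 to 0.0504, Creb1 from -0.0309 to 0.0327 and Mettl3 from -0.0883 to 0.0167. Against replicates 20 to 22, Pkd2 was 0.0176, Mettl3 0.0474 and Acta1 -0.0368. Yap1 was -0.00566 with TMM factors, -0.00626 by edgeR and -0.00991 by DESeq2, and Creb1 was -0.0273, -0.0263 and -0.0301 in those fits. No paired analysis was possible because each mouse has its own replicate number across the groups. With 5 mice a group, differences under about 0.5 on the log2 scale were often not detectable at this depth.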

Other observations

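Some lists were not part of the account above. In RC/- D53 against RC/- D18, 17 of 20 cholesterol synthesis genes were above 0 (median log2 fold change 0.14), with 0 called by limma, edgeR or DESeq2 and 6 higher at an unadjusted p below 0.05. Mvk, mevalonate kinase, was at 15.4, 15.6, 18.2, 14.5 and 12.9 CPM in D18 and at 19.1, 17.4, 18.7, 20.6 and 19.8 CPM in D53 (0.33, adjusted p = 0.139). The liver list (10 tested) had a median of 1.07, with 0 called by limma and edgeR and 4 higher by DESeq2. Its genes Alb and Ttr differ in kind: among these 10 libraries Alb was above 20 CPM in RC/- D53 replicates 25 and 27 only, at 88.3 and 20.6 CPM, while Ttr, the thyroid hormone carrier transthyretin, was separated between the groups (0.48, adjusted p = 0.0852). The red blood cell list (9 tested, 0 called by the 3 tools, 4 higher at an unadjusted p below 0.05) had a median of 0.42 and its highest sum in RC/- D53 replicate 23 (1415 CPM).

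Interferon genes (22 tested) had a median of 0.13 and complement genes (12 tested) one of 0.14, with 0 called by limma. Cfi, complement factor I, was 9.32 ± 1.45 CPM in D18 and 14.1 ± 3.25 CPM in D53 (SD, n = 5 each, 0.58, adjusted p = 0.0652). The MHC class II median of 0.12 became -0.09 without RC/- D53 replicate 24. Oxidative phosphorylation genes (20 tested, median -0.03) and glycolysis genes (16 tested, median 0.03) lay near the median of all genes, with 0 called by the 3 tools. The adipose median was -0.04 with all RC/- D18 libraries and -1.12 against replicates 20 to 22, among which replicate 22 has the high adipose sum.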
